A study of Homo sapiens with 9 samples.

Results

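The hypoxia response and glycolysis genes followed here are 39 named genes in 4 groups, listed by name with earlier results of these data known: 3 HIF factors, 13 hypoxia targets outside glycolysis, 6 transport and switch genes that HIF can induce, and 17 glycolytic enzymes. All 39 were found among the 26475 gene symbols of the deposited table, and all 39 passed the filter on low counts that left 16417 genes for testing. The RNA came from A375, an established melanoma line of human origin that carries mutant BRAF, grown in DMEM with serum, and no low-oxygen treatment is described for any group. The cells received DMSO, the vehicle, or TP-472 at 5 µM or 10 µM for 24 h, with 3 libraries per group, and TP-472 is a compound that blocks the bromodomains of BRD9 and BRD7, which are subunits of SWI/SNF chromatin remodelling complexes. All groups are the same line, each exposed at a single time point, and the series gives the 3 libraries of a group as biological replicates without saying how the cultures were set up, so p-values measure only the spread between these libraries.

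HIF is a transcription factor made of an oxygen-regulated alpha subunit, HIF1A or EPAS1, and the partner ARNT. With oxygen present, prolyl hydroxylases of the EGLN family mark the alpha subunit for destruction through VHL, so HIF activity is set largely at the level of protein and not of mRNA. HIF binds DNA at sites with the core ACGTG or GCGTG and raises genes for pH control, blood vessel growth, mitophagy, glucose uptake and glycolysis. Glycolysis turns glucose into pyruvate, and several of its steps are run by isozymes from separate genes, of which some are classic HIF targets and others serve as housekeeping enzymes. Tumor cells, melanoma among them, often keep glycolysis high with oxygen present.

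The promoters below are shown because they hold, or lack, the ACGTG form of the HIF core among members that differed in their response. Each is written 5′ to 3′ on the strand of its gene, from 250 bases before to 50 bases after the start in RefSeq, GRCh38.p14, with the letters ACGTG, or CACGT where it lies on the other strand, in capitals and GCGTG left in lower case. In CACGTG the letters ACGTG read on both strands. CA9 (chr9:35673678-35673977, + strand) was the member with the largest fall at 10 µM, and ALDOC (chr17:28576846-28577145, - strand), PGK1 (chrX:78103998-78104297, + strand) and LDHA (chr11:18394313-18394612, + strand) are glycolytic enzymes that fell. GAPDH (chr12:6535014-6535313, + strand) is a glycolytic enzyme with ACGTG in this window that was not called with all 9 libraries. This window lies inside the gene, which begins at 6533927 in GENCODE, and no window at that outer start was read. Whether ACGTG stands at the outer start of GAPDH was not tested. Without 10 µM replicate 1 GAPDH was called lower at 5 µM and 10 µM (edgeR adjusted p = 0.000295 and 4.15e-07). PFKFB4 (chr3:48556754-48557053, - strand) is a member that fell and has GCGTG but no ACGTG in this window. The windows of ALDOC, PGK1 and PFKFB4 also lie inside their genes as annotated in GENCODE. These genes span 28573115 to 28577264, 77910739 to 78129296 and 48517684 to 48562015.
CA9: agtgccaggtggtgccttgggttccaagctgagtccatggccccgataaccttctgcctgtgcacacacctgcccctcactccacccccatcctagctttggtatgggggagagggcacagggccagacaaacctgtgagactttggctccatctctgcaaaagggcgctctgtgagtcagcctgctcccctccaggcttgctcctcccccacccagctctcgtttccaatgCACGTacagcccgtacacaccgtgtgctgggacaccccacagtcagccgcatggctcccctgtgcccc
ALDOC: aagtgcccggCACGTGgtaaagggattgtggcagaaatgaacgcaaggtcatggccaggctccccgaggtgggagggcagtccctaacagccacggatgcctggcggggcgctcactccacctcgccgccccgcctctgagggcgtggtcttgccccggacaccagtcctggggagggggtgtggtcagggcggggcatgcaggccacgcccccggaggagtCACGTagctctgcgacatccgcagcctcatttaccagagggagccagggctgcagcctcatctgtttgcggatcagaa
PGK1: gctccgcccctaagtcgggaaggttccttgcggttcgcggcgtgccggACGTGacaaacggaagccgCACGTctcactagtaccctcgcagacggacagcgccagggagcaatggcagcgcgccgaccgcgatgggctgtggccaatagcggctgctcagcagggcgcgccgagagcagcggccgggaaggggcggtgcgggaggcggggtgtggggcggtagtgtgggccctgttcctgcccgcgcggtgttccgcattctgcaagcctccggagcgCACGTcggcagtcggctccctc
LDHA: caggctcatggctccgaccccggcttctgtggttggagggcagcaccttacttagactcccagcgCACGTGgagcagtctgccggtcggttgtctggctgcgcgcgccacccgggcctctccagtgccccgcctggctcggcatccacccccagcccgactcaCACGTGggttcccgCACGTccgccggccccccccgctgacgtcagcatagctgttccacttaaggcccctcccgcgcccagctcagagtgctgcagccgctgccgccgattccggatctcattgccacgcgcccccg
GAPDH: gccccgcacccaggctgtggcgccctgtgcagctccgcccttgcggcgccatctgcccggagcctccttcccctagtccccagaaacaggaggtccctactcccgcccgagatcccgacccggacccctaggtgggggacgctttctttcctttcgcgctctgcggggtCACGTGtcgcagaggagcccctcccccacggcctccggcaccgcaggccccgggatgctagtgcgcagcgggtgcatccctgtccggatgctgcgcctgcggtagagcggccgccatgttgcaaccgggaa
PFKFB4: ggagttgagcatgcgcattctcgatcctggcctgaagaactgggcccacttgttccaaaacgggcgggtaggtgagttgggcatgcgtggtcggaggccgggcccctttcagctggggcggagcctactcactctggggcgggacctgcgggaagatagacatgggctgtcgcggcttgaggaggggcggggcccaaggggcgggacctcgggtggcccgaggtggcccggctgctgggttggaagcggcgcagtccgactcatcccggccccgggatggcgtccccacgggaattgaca
ACGTG stood in 21.4% of all 35116 promoter windows of this length, read on both strands, and in 15.5% of them outside the palindrome CACGTG. Windows were matched to 35 members, the others being VEGFA, NDRG1, BNIP3L and SLC2A3. Of the 66 windows of the members, some of which overlap each other, 24 (36.4%) held ACGTG and 19 held ACGTG outside CACGTG. Of the 22 members with a single window 10 held ACGTG, against 21.3% of all genes with a single window. ACGTG or GCGTG stood in 44 windows of the members (66.7%), against 48.4% of all windows. Counted by gene, 20 members had ACGTG in at least 1 window and 15 of these were called lower at 10 µM in edgeR, while 15 members had none and 8 of these were called lower, where 18.0% of all genes tested were lower. With GCGTG counted too, 32 members had a match, 22 of them called lower, and 3 had none, 1 of them called lower. A match gives the letters only, and binding at these windows was not measured.

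Each library held between 42483091 and 51298130 expected counts, the numbers of reads per gene as estimated by RSEM, and genes of ribosomal RNA took 8.20% to 19.9% of them. The label of a melanoma line was checked against 8 melanocyte lineage markers. Of these, 4 had a mean of at least 1 CPM (counts relative to the library total, scaled by TMM), with SOX10 at 416 CPM, MITF at 31.9 CPM, S100B at 7.09 CPM and PMEL at 1.48 CPM in DMSO, while TYR and DCT, enzymes of pigment synthesis, were at 0 CPM in DMSO. The T cell marker CD3E was at 0 in every group, and PTPRC, EPCAM and CDH1 had group means of at most 0.211 CPM. The summed level of 5 fibroblast markers moved with dose, with 35.3 to 37.3 CPM under DMSO, 17.5 to 20.0 CPM with 5 µM and 10.7 to 15.3 CPM with 10 µM, with COL1A2 and THY1 at most at 0.0642 CPM on average. That of 4 endothelial markers was 4.16 to 5.56 CPM under DMSO, 5.67 to 9.36 CPM at 5 µM and 10.4 to 16.3 CPM at 10 µM, a rise in KDR, with means of 1.92, 5.72 and 10.9 CPM, while PECAM1 had 1.79, 0.889 and 1.20 CPM, and the part of both lists in the results was not tested. The 5 leukocyte markers summed to 5.17 to 7.17 CPM over all libraries, nearly all of it LYZ, and the 6 epithelial markers, mostly KRT18, to 666 to 952 CPM. The library of 10 µM replicate 1 stood apart, in that transcript length and GC content together explained 8.26% of how its genes deviated from their group means, as a share of variance, against 3.36% and 4.37% in the other 10 µM libraries and at most 0.426% elsewhere. Its spread enters the test of every comparison, and calls that change without it are given with the members or after the comparison of the doses.

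Compared with DMSO, TP-472 lowered a large share of these genes, and no member was called higher with all 9 libraries. At 5 µM, 22 of the 39 members were lower at a Benjamini-Hochberg adjusted p under 0.05 in edgeR's quasi-likelihood test, where 5.81% of all 16417 genes tested were lower, and 0 were higher, where 4.40% of all genes were. At 10 µM, 27 of 39 were lower, against 18.0% of all genes, and 0 were higher, against 16.4%. With a fold change of at least 1.5 as well, 13 members were lower at 5 µM and 16 at 10 µM, against 2.72% and 10.5% of all genes. The median log2 fold change of the members was -0.47 at 5 µM and -0.51 at 10 µM, beside 0.01 over all genes at each dose. In 35 members all 3 libraries at 5 µM were below all 3 DMSO libraries, which held for 25.0% of all genes, and in 28 members this was so at 10 µM, against 26.0%. At an unadjusted p under 0.05 also 0 members were higher at either dose, and the share of all genes at that threshold is not given here. DESeq2 and limma-voom gave 0 as well. Of all genes, DESeq2 called 1217 higher at 5 µM and 3233 at 10 µM, and limma-voom 603 and 2469. The 22 members lower at 5 µM were all lower at 10 µM, where the comparisons share their DMSO libraries, and the 27 called at 10 µM were all that were called in any comparison. The 12 called in none were HIF1A, ARNT, CA12, ANKRD37, EGLN3, CXCR4, PFKFB3, ALDOA, TPI1, GAPDH, PKM and LDHB. A member's values are given below as CPM in replicates 1, 2 and 3 of each group, and log2 fold changes as estimate ± SE.

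The plot of the members by library shows these falls library by library, with 10 µM replicate 1 above the other 10 µM libraries for all glycolytic enzymes but HK1 and HK2. In bulk RNA, fewer cells that express a gene and less of its RNA per cell cannot be told apart.

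**Figure D1:**
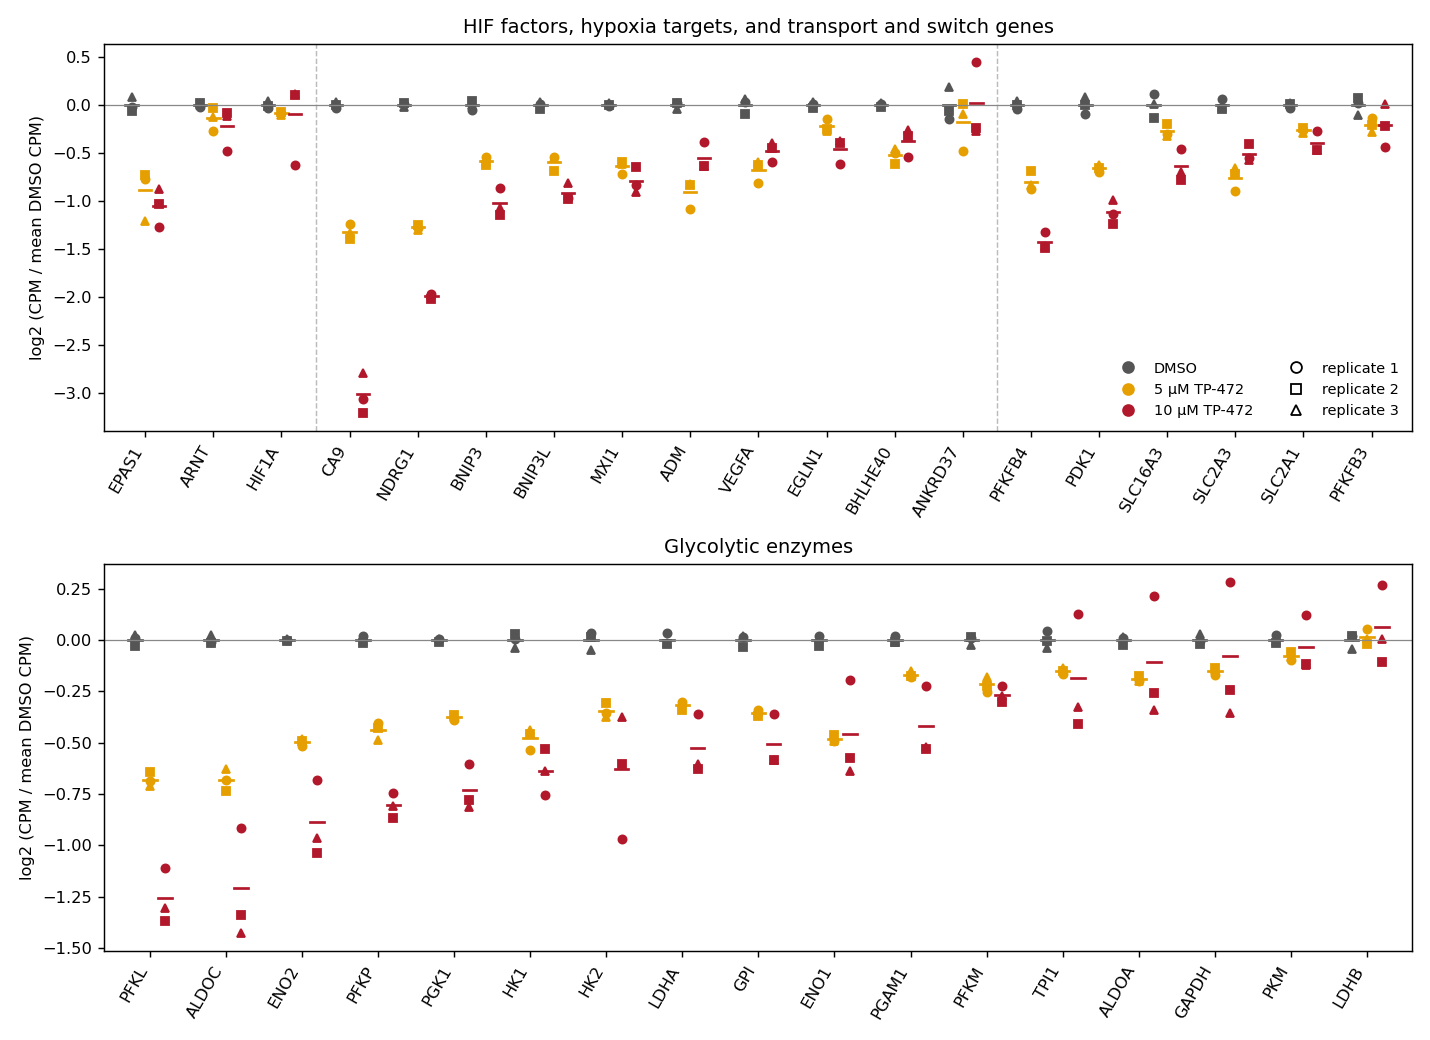
Expression of 36 members in each library, as log2 of CPM over the mean CPM of the 3 DMSO libraries, with HIF factors, hypoxia targets, and transport and switch genes above, divided by dashed lines, and glycolytic enzymes below; symbols give the replicate, short bars the log2 of the group mean, and the 3 members under 2 CPM in DMSO are left out. CA9 and NDRG1 reach the lowest values, and PFKL and ALDOC are lowest among the enzymes. The group means of GAPDH, ALDOA, TPI1, PKM and LDHB lie near 0, with 10 µM replicate 1 above the DMSO mean. For GAPDH, ALDOA, TPI1 and PKM, 10 µM replicates 2 and 3 lie below that mean.

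Among the HIF factors, EPAS1 fell and HIF1A and ARNT were not called. EPAS1, which encodes HIF-2alpha and lies on chromosome 2 from 46293667 to 46386703, was at 14.8, 14.5 and 16.0 CPM under DMSO, 8.87, 9.10 and 6.51 CPM with 5 µM, and 6.26, 7.36 and 8.25 CPM with 10 µM. All 6 TP-472 libraries were below the DMSO libraries, with log2 fold changes of -0.89 ± 0.15 (SE) at 5 µM and -1.05 ± 0.15 at 10 µM (edgeR adjusted p = 0.00589 and 0.00066). The doses overlapped, with a difference of -0.16 ± 0.15 (edgeR adjusted p = 0.557). HIF1A, the alpha subunit found in most cells, was at 284, 289.5 and 299 CPM under DMSO, 275, 276 and 271 CPM with 5 µM, and 188, 312 and 315 CPM with 10 µM. The library of 10 µM replicate 1 was far below the other 8, with log2 fold changes of -0.09 ± 0.16 at 5 µM and -0.10 ± 0.16 at 10 µM. Without that library HIF1A was called higher at 10 µM, by 0.11 on the log2 scale (edgeR adjusted p = 0.0194), and lower at 5 µM, at -0.09 (edgeR adjusted p = 0.0424), so its direction at 10 µM rests on a single library. With the dependence on exon length and GC content also taken out, no member was called higher at 10 µM in edgeR. ARNT, the partner of both, ranged from 47.7 to 49.2 CPM in DMSO and from 34.7 to 47.4 CPM in the TP-472 libraries, lower in all 6, and was not called. Per exon length, EPAS1 made up 3.54% ± 0.117 (SD, n = 3) of the summed HIF1A and EPAS1 transcripts in DMSO, 2.06% ± 0.338 at 5 µM and 1.92% ± 0.34 at 10 µM.

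The largest falls at 10 µM, those of CA9 and NDRG1, were among the hypoxia targets outside glycolysis, of which 8 of 13 were lower at 5 µM and 9 of 13 at 10 µM. CA9, the membrane carbonic anhydrase that helps tumor cells export acid and a standard marker of HIF activity, was at 79.5, 81.5 and 83.5 CPM under DMSO, 34.4, 30.9 and 32.2 CPM with 5 µM, and 9.73, 8.77 and 11.7 CPM with 10 µM. Each step in dose lowered it with no overlap between groups, by log2 fold changes of -1.33 ± 0.11 at 5 µM and -3.02 ± 0.11 at 10 µM, with -1.69 ± 0.11 between the doses (edgeR adjusted p = 6.73e-05, 1.61e-07 and 4.06e-05). CA9 lies on chromosome 9 from 35673856 to 35681159 (GRCh38, GENCODE release 29), and 38.5% of its exon length overlaps ARHGEF39 on the other strand. ARHGEF39 itself had mean levels of 14.8 CPM under DMSO, 11.7 CPM with 5 µM and 6.94 CPM with 10 µM. No source used here says whether reads were counted by strand, and the part of ARHGEF39 in the counts of CA9 was not tested.

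NDRG1, a stress-responsive gene long used as a readout of hypoxia, was at 511, 514 and 501 CPM under DMSO, 209.5, 214 and 206 CPM with 5 µM, and 129.6, 125 and 129 CPM with 10 µM. The groups of 3 were tight and far apart, with log2 fold changes of -1.28 ± 0.06 at 5 µM and -1.99 ± 0.06 at 10 µM and a further -0.72 ± 0.06 from 5 µM to 10 µM (edgeR adjusted p = 3.62e-06, 4.81e-08 and 0.000128). The related mitophagy receptors BNIP3 and BNIP3L also stepped down with dose. BNIP3 was at 219, 234 and 227 CPM under DMSO, 156, 147 and 150.4 CPM with 5 µM, and 125, 102 and 107 CPM with 10 µM. Its log2 fold changes were -0.59 ± 0.08 at 5 µM and -1.02 ± 0.08 at 10 µM, with -0.44 ± 0.08 between doses (edgeR adjusted p = 0.00204, 1.59e-05 and 0.0119). BNIP3L was at 117, 112 and 118 CPM under DMSO, 79.5, 71.9 and 78.7 CPM with 5 µM, and 58.8, 58.7 and 65.8 CPM with 10 µM. It changed by -0.59 ± 0.08 at 5 µM, -0.92 ± 0.08 at 10 µM and -0.33 ± 0.08 between them (edgeR adjusted p = 0.00131, 1.94e-05 and 0.0302). For CA9, NDRG1, BNIP3 and BNIP3L, all 10 µM libraries were below all 5 µM libraries, and these were the 4 hypoxia targets called lower at 10 µM against 5 µM.

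For VEGFA, ADM and BHLHE40 the estimated fall at 10 µM was smaller than that at 5 µM. VEGFA, the main growth factor for blood vessels, was at 69.8, 64.0 and 71.0 CPM under DMSO, 38.9, 44.3 and 45.1 CPM with 5 µM, and 45.1, 50.2 and 51.7 CPM with 10 µM, which gave log2 fold changes of -0.67 ± 0.09 and -0.48 ± 0.09 (edgeR adjusted p = 0.00142 and 0.00265). ADM, which encodes the vasodilator peptide adrenomedullin, was at 22.9, 22.9 and 22.0 CPM under DMSO, 10.6, 12.7 and 12.8 CPM with 5 µM, and 17.3, 14.5 and 14.5 CPM with 10 µM. All 3 of its 10 µM libraries were above all 5 µM libraries and below all DMSO libraries, with log2 fold changes of -0.91 ± 0.11 at 5 µM and -0.55 ± 0.11 at 10 µM against DMSO (edgeR adjusted p = 0.000856 and 0.00354) and 0.36 ± 0.11 between doses (edgeR adjusted p = 0.0757). BHLHE40, a transcriptional repressor of the clock and the hypoxia response, was at 64.2, 62.8 and 64.7 CPM under DMSO, 45.1, 41.7 and 46.5 CPM with 5 µM, and 43.8, 50.9 and 53.3 CPM with 10 µM, with log2 fold changes of -0.52 ± 0.09 and -0.37 ± 0.09 (edgeR adjusted p = 0.00521 and 0.00904). Without 10 µM replicate 1, VEGFA and BHLHE40 were called higher at 10 µM than at 5 µM, by 0.25 and 0.23 on the log2 scale, while ADM still was not (edgeR adjusted p = 0.016, 0.0108 and 0.0562).

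MXI1, which encodes an antagonist of MYC, was at 42.1, 42.4 and 43.0 CPM under DMSO, 25.8, 28.1 and 27.8 CPM with 5 µM, and 23.9, 27.1 and 22.6 CPM with 10 µM, lower in all TP-472 libraries, with log2 fold changes of -0.64 ± 0.09 and -0.79 ± 0.09 (edgeR adjusted p = 0.00151 and 0.000105). EGLN1, the main prolyl hydroxylase that acts on HIF alpha and itself a HIF target, was at 139.5, 136 and 141 CPM under DMSO, 125, 117 and 115 CPM with 5 µM, and 90.6, 105 and 107 CPM with 10 µM. Its groups did not overlap, but with all 9 libraries the change was called against DMSO at 10 µM only, with -0.22 ± 0.08 at 5 µM and -0.46 ± 0.08 at 10 µM (edgeR adjusted p = 0.116 and 0.00184). From 5 µM to 10 µM the change was -0.24 ± 0.08 (edgeR adjusted p = 0.102). Without 10 µM replicate 1 EGLN1 was called lower at 5 µM too, and between the doses, at -0.22 and -0.17 (edgeR adjusted p = 0.000574 and 0.0156). ANKRD37, an ankyrin repeat protein gene induced by hypoxia, ranged from 8.89 to 11.2 CPM under DMSO, 7.08 to 9.90 CPM at 5 µM and 8.17 to 13.5 CPM at 10 µM, and 35.2% of its exon length overlaps UFSP2 on the other strand. The prolyl hydroxylase EGLN3, the carbonic anhydrase CA12 and the chemokine receptor CXCR4 were at or under 1.69 CPM in every library, with mean counts of 36, 42 and 7 per library, and with all 9 libraries no change in them was detectable at this depth. EGLN3, at -1.86 ± 0.65 on the log2 scale at 5 µM, was below DMSO in all 3 libraries there and was called without 10 µM replicate 1 (edgeR adjusted p = 0.0271).

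In the group of HIF-inducible transport and switch genes, 4 of 6 were lower at 5 µM and 5 of 6 at 10 µM. PFKFB4, whose product makes and breaks down the fructose bisphosphate that activates phosphofructokinase, lies on chromosome 3 from 48517684 to 48562015 and was at 174, 179 and 184 CPM under DMSO, 97.0, 111 and 100.5 CPM with 5 µM, and 71.2, 63.8 and 64.6 CPM with 10 µM. Its log2 fold changes were -0.80 ± 0.08 at 5 µM and -1.43 ± 0.08 at 10 µM, with -0.63 ± 0.08 between the doses (edgeR adjusted p = 0.000264, 1.44e-06 and 0.00135). Its relative PFKFB3, with the same kind of product, was at 62.2 to 70.3 CPM under DMSO, 55.0 to 60.5 CPM at 5 µM and 49.3 to 67.0 CPM at 10 µM and was not called. PDK1, the kinase that shuts pyruvate out of the mitochondrial oxidation pathway, was at 23.4, 25.0 and 26.4 CPM under DMSO, 15.4, 15.8 and 16.2 CPM with 5 µM, and 11.4, 10.6 and 12.6 CPM with 10 µM. It stepped down with dose, by -0.66 ± 0.09 at 5 µM, -1.12 ± 0.10 at 10 µM and -0.46 ± 0.10 between them (edgeR adjusted p = 0.00211, 2.16e-05 and 0.0186).

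Both glucose transporters fell, with unlike patterns across doses. SLC2A1, which encodes GLUT1, was at 343, 352 and 356 CPM under DMSO, 292, 296 and 286 CPM with 5 µM, and 291, 254 and 253 CPM with 10 µM, with log2 fold changes of -0.27 ± 0.07 and -0.40 ± 0.07 (edgeR adjusted p = 0.0445 and 0.00225). SLC2A3, which encodes GLUT3, was at 61.6, 57.2 and 58.3 CPM under DMSO, 31.7, 35.8 and 37.4 CPM with 5 µM, and 40.3, 44.5 and 39.5 CPM with 10 µM, with log2 fold changes of -0.76 ± 0.09 and -0.51 ± 0.09 (edgeR adjusted p = 0.000699 and 0.00165). All 10 µM libraries of SLC2A3 were above those at 5 µM, and the difference of 0.25 ± 0.09 was not called (edgeR adjusted p = 0.117) but was called without 10 µM replicate 1, at 0.26 (edgeR adjusted p = 0.0183). SLC16A3, the lactate exporter MCT4, was at 59.2, 49.8 and 54.9 CPM under DMSO, 44.4, 47.7 and 43.5 CPM with 5 µM, and 39.7, 31.7 and 33.6 CPM with 10 µM. With all 9 libraries it was called at 10 µM only, with -0.27 ± 0.10 at 5 µM and -0.64 ± 0.10 at 10 µM (edgeR adjusted p = 0.134 and 0.00117), and the difference between doses was -0.37 ± 0.10 (edgeR adjusted p = 0.0575). Without 10 µM replicate 1 it was called lower at 5 µM too, and between the doses, at -0.27 and -0.47 (edgeR adjusted p = 0.00405 and 0.000265).

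Of the 17 glycolytic enzymes, 9 were lower at 5 µM and 12 at 10 µM, and their median log2 fold changes were -0.35 and -0.51, beside -0.64 and -0.48 for the 13 hypoxia targets outside glycolysis. Those 13 include the low-count EGLN3, CA12 and CXCR4, and their median at 10 µM was -0.72 with limma-voom. The difference between the 2 lists was not tested. Expressed per exon length, the 9 most abundant members were all glycolytic enzymes, in the order GAPDH, ENO1, PKM, ALDOA, TPI1, LDHB, PGAM1, LDHA and PGK1, from 8841 ± 209 (SD, n = 3) to 946 ± 11.5 TPM (transcripts scaled by length and library) in DMSO. ALDOA and TPI1, at 1768 ± 28.5 and 1753 ± 33.5, did not differ beyond their spread. The members called in none of the comparisons included 5 of the first 6 of that order, GAPDH, PKM, ALDOA, TPI1 and LDHB, and the exception was ENO1. The lengths join all annotated exons of a gene, and the order depends on them. By CPM, LDHA and PGK1, at means of 1282 and 1086 CPM in DMSO, were above LDHB and TPI1, at 989 and 985 CPM.

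At the first steps of the pathway, the hexokinases, which trap glucose in the cell, were both lower at 10 µM, and HK1 at 5 µM too. HK1 was at 213, 217 and 207 CPM under DMSO, 146, 154 and 156 CPM with 5 µM, and 126, 147 and 136 CPM with 10 µM, with log2 fold changes of -0.48 ± 0.07 and -0.64 ± 0.07 (edgeR adjusted p = 0.0034 and 0.000164). HK2, the inducible form, was at 143, 140.4 and 134 CPM under DMSO, 109, 112 and 107 CPM with 5 µM, and 71.2, 91.6 and 107 CPM with 10 µM, widely spread at 10 µM, with log2 fold changes of -0.35 ± 0.12 and -0.63 ± 0.13 (edgeR adjusted p = 0.116 and 0.00374). GPI, which converts glucose phosphate to fructose phosphate, was at 591, 570.0 and 592 CPM under DMSO, 461, 452 and 458 CPM with 5 µM, and 455, 389.9 and 389.7 CPM with 10 µM. Its groups of DMSO and TP-472 libraries did not overlap, with -0.35 ± 0.07 at 5 µM and -0.51 ± 0.07 at 10 µM (edgeR adjusted p = 0.0145 and 0.000649).

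The 3 phosphofructokinase genes, which encode the isozymes of the committed step, were all lower at 10 µM, with different estimates. PFKL, the liver form, on chromosome 21 from 44300051 to 44327376, was at 114, 111 and 115 CPM under DMSO, 70.3, 72.5 and 69.3 CPM with 5 µM, and 52.5, 43.9 and 45.9 CPM with 10 µM. The fall had log2 sizes of -0.68 ± 0.08 at 5 µM, -1.26 ± 0.08 at 10 µM and -0.58 ± 0.08 between doses (edgeR adjusted p = 0.000786, 3.74e-06 and 0.00249). PFKP, the platelet form, was at 291, 284 and 286 CPM under DMSO, 217, 213 and 205 CPM with 5 µM, and 171, 158 and 164 CPM with 10 µM. It changed by -0.44 ± 0.06 at 5 µM, -0.81 ± 0.06 at 10 µM and -0.37 ± 0.06 between doses (edgeR adjusted p = 0.00218, 1.25e-05 and 0.00793). PFKM, the muscle form, was at 124, 124 and 121 CPM under DMSO, 104, 106 and 109 CPM with 5 µM, and 105, 99.9 and 102 CPM with 10 µM. This smaller change was called at 10 µM, at -0.27 ± 0.06, and not at 5 µM, at -0.22 ± 0.06 (edgeR adjusted p = 0.00891 and 0.0569).

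Of the aldolases, which split fructose bisphosphate, ALDOC fell and ALDOA was not called with all 9 libraries. ALDOC, on chromosome 17 from 28573115 to 28577264, was at 104, 103 and 106 CPM under DMSO, 65.2, 62.9 and 67.6 CPM with 5 µM, and 55.4, 41.3 and 38.8 CPM with 10 µM. The values gave log2 fold changes of -0.68 ± 0.12 at 5 µM, -1.21 ± 0.12 at 10 µM and -0.53 ± 0.12 between doses (edgeR adjusted p = 0.00662, 6.39e-05 and 0.0272). ALDOA was at 1449, 1419 and 1455 CPM under DMSO, 1255, 1278 and 1255 CPM with 5 µM, and 1671, 1203 and 1137 CPM with 10 µM. Replicate 1 at 10 µM was its highest library and the other 5 TP-472 libraries were below all DMSO libraries, and 42.3% of its exon length overlaps AC093512.2 on the same strand. TPI1 and GAPDH, the next enzymes, had the same arrangement. TPI1 was at 1016, 981 and 959 CPM under DMSO, 877, 886 and 895 CPM with 5 µM, and 1075, 742 and 787 CPM with 10 µM. GAPDH, a common reference gene, was at 5458, 5408 and 5588 CPM under DMSO, 4880, 4990 and 4964 CPM with 5 µM, and 6681, 4640 and 4282 CPM with 10 µM. With all 9 libraries the log2 fold changes of TPI1 and GAPDH at 10 µM were -0.18 ± 0.12 and -0.08 ± 0.14, not called.

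In the lower part of the pathway, PGK1, the first enzyme that makes ATP there, was at 1088, 1078 and 1091 CPM under DMSO, 828, 842 and 838 CPM with 5 µM, and 715, 632 and 617 CPM with 10 µM. It fell with each dose, by -0.38 ± 0.07 at 5 µM, -0.73 ± 0.07 at 10 µM and -0.35 ± 0.07 between them (edgeR adjusted p = 0.00748, 4.08e-05 and 0.013). PGAM1, the mutase that follows, was at 635, 622 and 622 CPM under DMSO, 553, 555 and 564 CPM with 5 µM, and 536, 434 and 436 CPM with 10 µM, with -0.17 ± 0.09 at 5 µM and -0.42 ± 0.09 at 10 µM (edgeR adjusted p = 0.265 and 0.00417). Both enolases fell. ENO1, the form found in most cells, was at 3921, 3786 and 3879 CPM under DMSO, 2748, 2800 and 2743 CPM with 5 µM, and 3370, 2589 and 2480 CPM with 10 µM, with log2 fold changes of -0.48 ± 0.10 and -0.46 ± 0.10 (edgeR adjusted p = 0.0154 and 0.00677). ENO2, the neuronal form, was at 156, 155 and 156 CPM under DMSO, 109, 111 and 111 CPM with 5 µM, and 97.0, 76.0 and 79.9 CPM with 10 µM. Its change was -0.50 ± 0.09 at 5 µM, -0.89 ± 0.09 at 10 µM and -0.39 ± 0.09 between doses (edgeR adjusted p = 0.00787, 7.32e-05 and 0.0297).

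PKM and LDHB, at the end of the pathway, were not called with all 9 libraries, whereas LDHA was. PKM, the pyruvate kinase gene, ranged from 3546 to 3639 CPM under DMSO, 3347 to 3442 CPM at 5 µM and 3299 to 3894 CPM at 10 µM. Without 10 µM replicate 1 PKM was called lower at 5 µM and 10 µM, at -0.08 and -0.12 (edgeR adjusted p = 0.00538 and 0.0003). LDHA, the lactate dehydrogenase form favoured in lactate production, was at 1312, 1266 and 1267 CPM under DMSO, 1040, 1013 and 1035 CPM with 5 µM, and 999, 829.9 and 843 CPM with 10 µM. All TP-472 libraries were below all DMSO libraries, with log2 fold changes of -0.32 ± 0.08 and -0.52 ± 0.08 (edgeR adjusted p = 0.0298 and 0.00067). LDHB, the form favoured in lactate use, was at 1004, 1003 and 960.1 CPM under DMSO, 1026, 975 and 992 CPM with 5 µM, and 1190, 917 and 992 CPM with 10 µM, which overlapped between all groups, with 0.01 ± 0.09 at 5 µM and 0.06 ± 0.09 at 10 µM (edgeR adjusted p = 0.957 and 0.636). In the annotation, 33.4% of the exon length of LDHB overlaps AC010197.2 on the same strand.

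**Figure D2:**
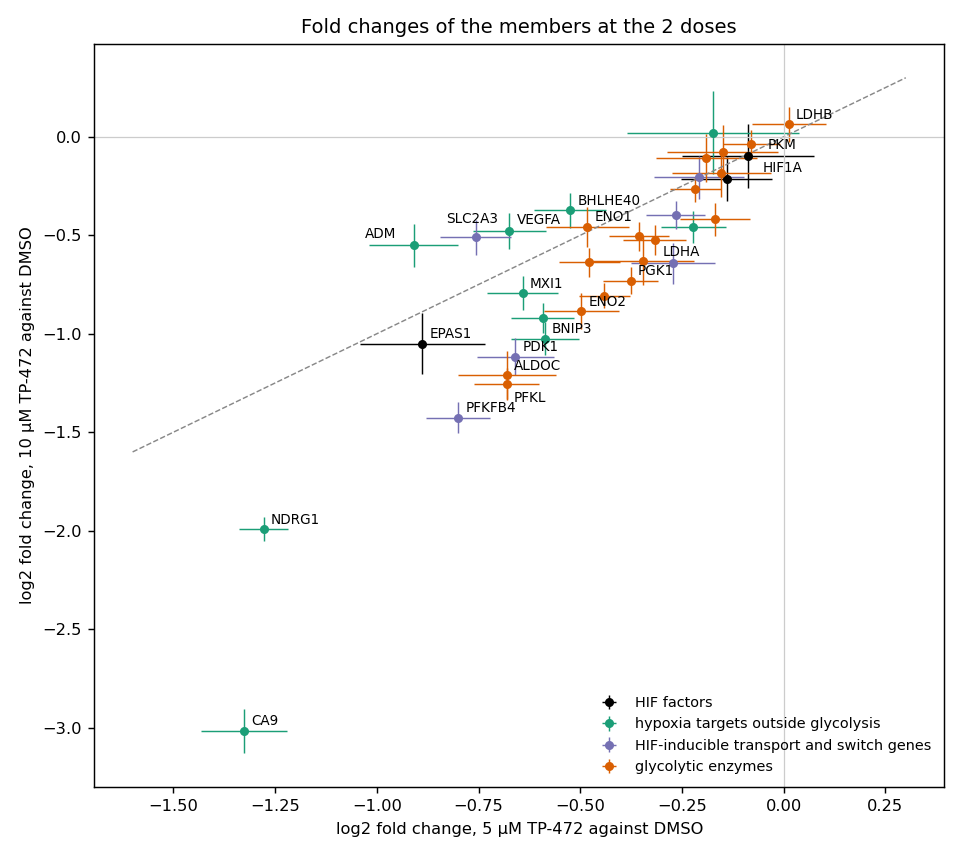
Log2 fold changes of 36 members against DMSO at 5 µM (horizontal axis) and 10 µM (vertical axis), with bars of 1 SE from the edgeR fit, colours for the 4 groups of genes and a dashed line where both doses are equal. CA9 and NDRG1 lie far below the line, VEGFA, ADM, SLC2A3 and BHLHE40 above it, and LDHB, PKM and HIF1A near 0.

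Isozyme shares were computed per exon length within each library, so a factor common to a whole library cancels, and they carry no test. The length joins all annotated exons of a gene and not those of the transcript expressed. Among the phosphofructokinases, PFKL went from 14.3% ± 0.246 (SD, n = 3) in DMSO to 12.0% ± 0.203 at 5 µM and 9.96% ± 0.533 at 10 µM, and PFKM from 19.0% ± 0.313 to 21.9% ± 0.885 and 26.3% ± 0.408. Both orders held without overlap between any groups, while PFKP, the major form, had 66.8% ± 0.202, 66.1% ± 0.94 and 63.7% ± 0.219. ALDOC went from 8.85% ± 0.0789 of the aldolases to 6.46% ± 0.273 and 4.33% ± 0.0776. LDHA went from 38.4% ± 0.55 of LDHA and LDHB to 33.1% ± 0.335 and 29.3% ± 0.839, and the groups did not overlap. That LDHA is the smaller share in DMSO rests on the lengths, 6210 bases for LDHA and 2983 for LDHB. By CPM, LDHA was the larger there, at means of 1282 and 989 CPM. The share of ENO2 among the enolases was 4.74% ± 0.0738 in DMSO, 4.69% ± 0.0638 at 5 µM, where the groups overlapped, and 3.58% ± 0.209 at 10 µM. HK2 had 40.5% ± 0.431, 42.7% ± 1.03 and 40.4% ± 4.09 of the hexokinases, with 10 µM spread across the other groups. SLC2A3 had 11.5% ± 0.574, 8.42% ± 0.712 and 10.7% ± 1.13 of the glucose transporters, lower than DMSO in all libraries at 5 µM and overlapping it at 10 µM.

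**Figure D3:**
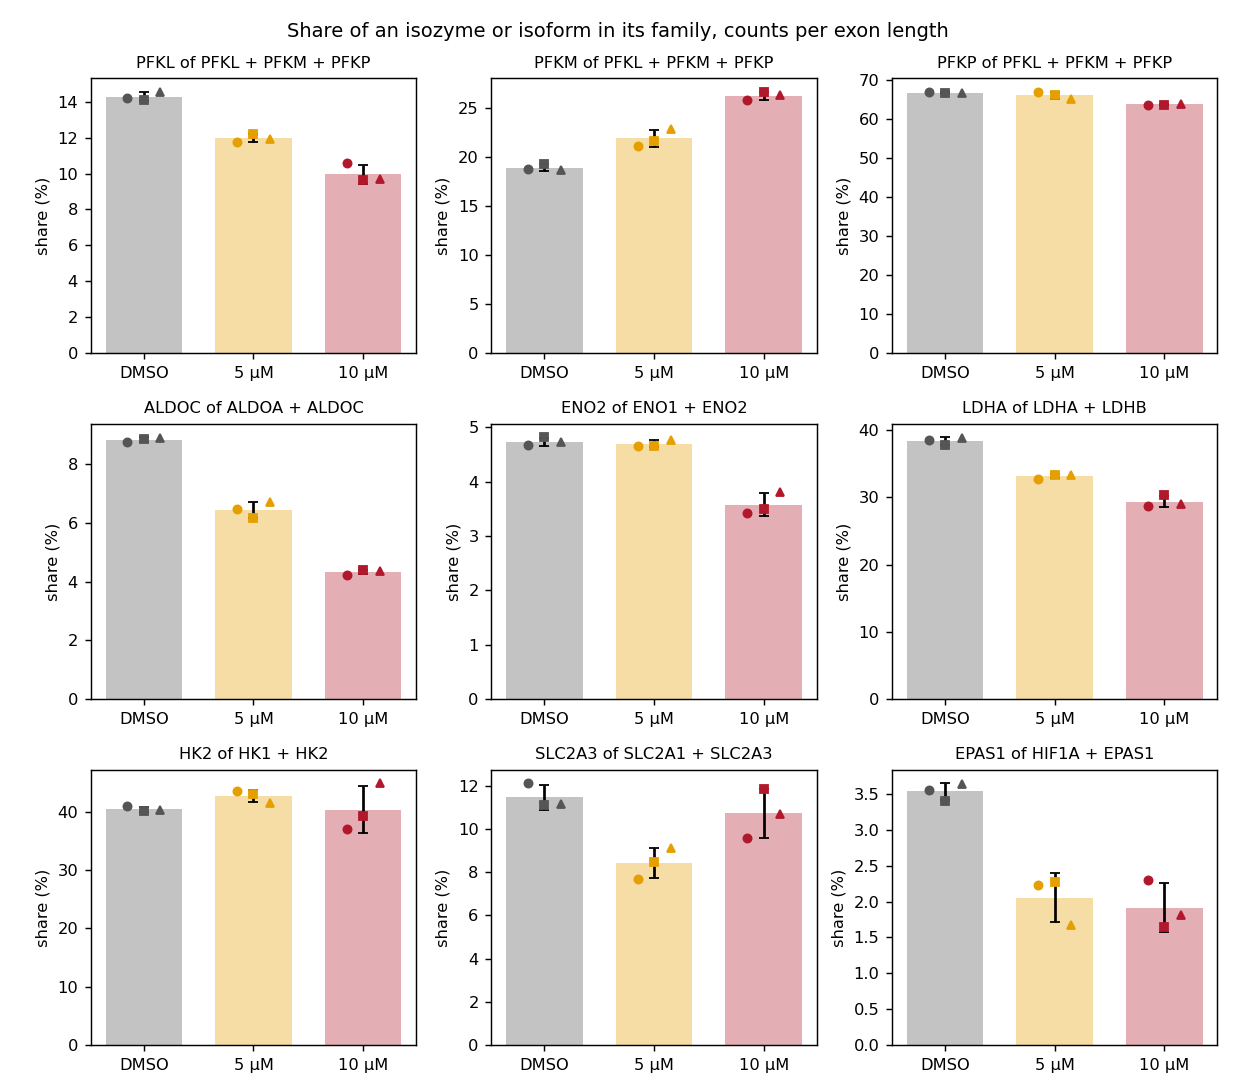
Share of 1 isozyme or isoform in its family in each library, in percent of counts per exon length, for DMSO, 5 µM and 10 µM TP-472; bars are group means, error bars SD (n = 3) and symbols the replicates, on vertical axes that start at 0 and differ between panels. The shares of PFKL, ALDOC and LDHA step down with dose and that of PFKM steps up, whereas those of HK2 and SLC2A3 at 10 µM overlap DMSO.

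The comparison of 10 µM with 5 µM, which does not use DMSO, called 11 of 39 members lower, against 5.53% of all genes, and 0 higher, against 2.87%. The 11 were CA9, NDRG1, BNIP3, BNIP3L, PDK1, PFKFB4, PFKL, PFKP, ALDOC, PGK1 and ENO2. With a fold change of at least 1.5 as well, CA9, NDRG1 and PFKFB4 were left, against 2.59% of all genes. At an unadjusted p under 0.05, 3 members were higher at 10 µM than at 5 µM, and the share of all genes at that threshold is not given here. DESeq2 called 1 member higher and limma-voom 0, where they called 1080 and 382 of all 16417 genes higher. Of the 22 members lower at both doses, 17 had the larger fall at 10 µM and the other 5 were VEGFA, ADM, SLC2A3, BHLHE40 and ENO1. This count of 11 depended on single libraries, as it was 5, 6 and 5 without 5 µM replicates 1, 2 and 3 and 21 without 10 µM replicate 1. The count over all genes moved too, from 908 lower with all 9 libraries to 403, 388 and 397 without those 5 µM libraries and 2576 without 10 µM replicate 1.

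Without 10 µM replicate 1, more members were called and more of all genes were too. The members lower at 5 µM became 34, against 17.6% of all genes, and the 12 added were HIF1A, EGLN1, EGLN3, SLC16A3, PFKFB3, HK2, PFKM, ALDOA, TPI1, GAPDH, PGAM1 and PKM. Among these, HK2 was at -0.35, PFKM at -0.22, PGAM1 at -0.17 and PFKFB3 at -0.21 (edgeR adjusted p = 8.84e-05, 0.000406, 0.000134 and 0.0196). Those lower at 10 µM became 31, against 25.8%. HIF1A was the 1 member higher at 10 µM, against 23.0% of all genes. Between the doses 21 members were lower, against 15.4%, and 4 were higher, against 8.80%, namely HIF1A, VEGFA, BHLHE40 and SLC2A3. The 10 added as lower between the doses were EGLN1, SLC2A1, SLC16A3, GPI, ALDOA, TPI1, GAPDH, PGAM1, ENO1 and LDHA. The 27 members called at 10 µM with all libraries stayed called, and their log2 fold changes moved by at most 0.175. The added members at 10 µM were GAPDH at -0.30, ALDOA at -0.30, TPI1 at -0.37 and PKM at -0.12. The largest falls among the enzymes there were those of ALDOC, at -1.39, and PFKL, at -1.34. PFKM and BHLHE40, called at 10 µM with all libraries too, were at -0.29 and -0.30 in this fit, similar to GAPDH and ALDOA. LDHB, at -0.05, was not called there either (edgeR adjusted p = 0.243).

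**Figure D4:**
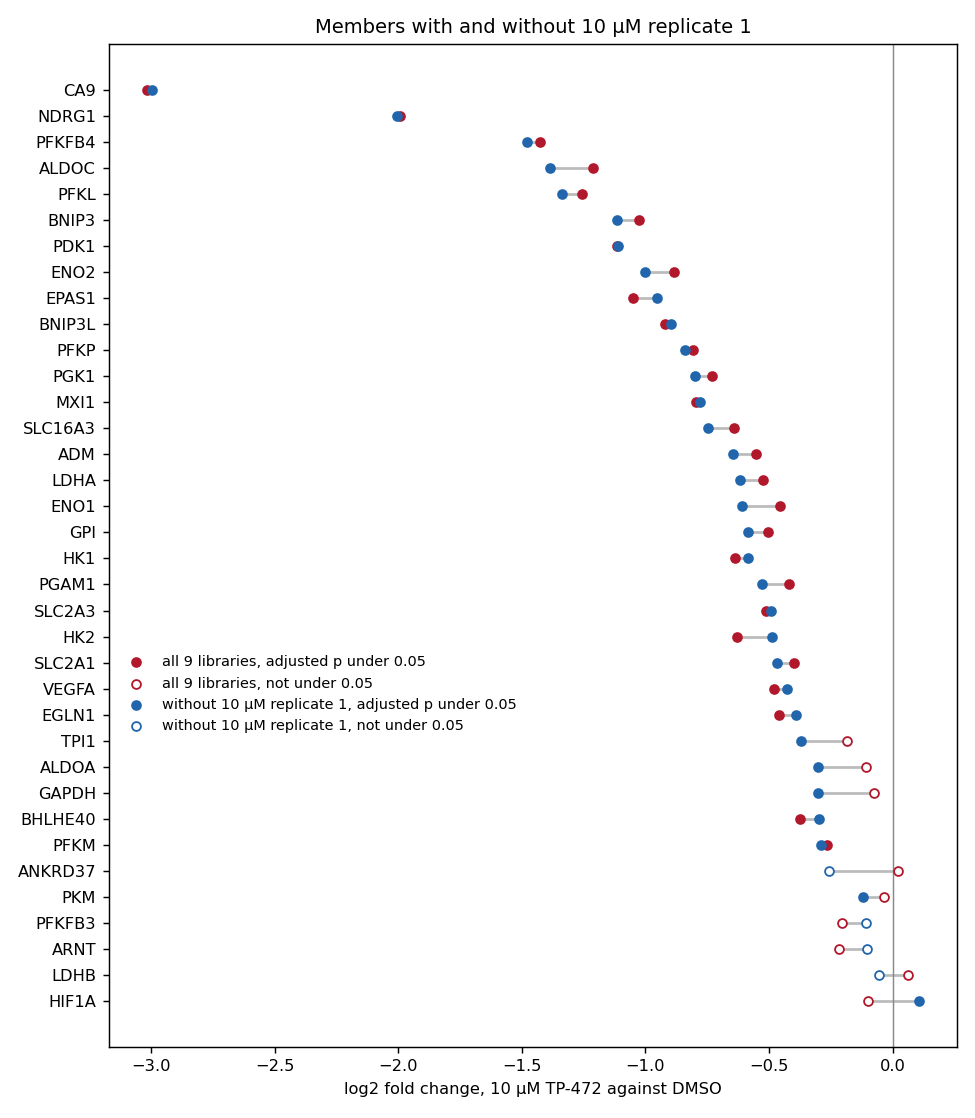
Log2 fold changes at 10 µM against DMSO of 36 members with all 9 libraries (red) and without 10 µM replicate 1 (blue), joined by a line; filled points have an adjusted p under 0.05 in edgeR and open points do not. The points of CA9 and NDRG1 nearly coincide, while GAPDH, ALDOA, TPI1 and PKM turn from open to filled, and HIF1A crosses 0.

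Further lists of the pathway were read in the same fit. Among 24 tested further hypoxia targets, 10 were lower and 2 higher at 5 µM, against 5.81% and 4.40% of all genes, and 15 were lower and 3 higher at 10 µM, against 18.0% and 16.4%. ZNF395, a transcription factor gene induced by hypoxia, had group means of 76.7, 36.3 and 22.1 CPM in the order of dose, a log2 fold change of -1.79 at 10 µM (edgeR adjusted p = 6.98e-07). HILPDA, a lipid droplet protein gene, had means of 30.0, 10.7 and 10.3 CPM, at -1.54 (edgeR adjusted p = 1.67e-05). P4HA1, a collagen prolyl hydroxylase gene, changed by -0.90 and PGM1, which links glycogen to glycolysis, by -0.73 (edgeR adjusted p = 1.43e-05 and 2.3e-05). Against this direction, STC2, a secreted glycoprotein gene, rose, with means of 28.2, 34.5 and 56.6 CPM, at 1.01 (edgeR adjusted p = 7.62e-06).

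Of 11 tested genes that control HIF, 1 was lower and 3 were higher at 10 µM, against 18.0% and 16.4% of all genes. CITED2, which competes with HIF for its coactivators and is itself induced by HIF, had means of 27.4 CPM under DMSO, 37.2 CPM with 5 µM and 59.2 CPM with 10 µM, a rise of 1.11 on the log2 scale (edgeR adjusted p = 1.05e-05). ELOB, a subunit of the VHL ubiquitin ligase, had a log2 fold change of 0.82 at 10 µM (edgeR adjusted p = 0.0178), and of 0.44 without 10 µM replicate 1. The other 2 called were ELOC, its partner, at 0.49, and ARNT2, a relative of ARNT, at -0.58, named because so few were called. VHL, HIF1AN and EGLN2 were not called at either dose with all 9 libraries. Without 10 µM replicate 1 they were called at 10 µM, at -0.38, 0.20 and -0.22 (edgeR adjusted p = 8.39e-06, 0.00378 and 0.0259), and VHL at 5 µM as well, at -0.14 (edgeR adjusted p = 0.0212). CUL2 and EP300, at 0.17 and 0.20, were also called at 10 µM without it.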

How the data were processed

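RNA from 9 cultures of A375 cells was sequenced, with 3 libraries for each of DMSO, 5 µM and 10 µM TP-472. The authors deposited expected counts per gene symbol, not scaled to library size, in 1 table, and all of its per-sample columns matched a sample. The submitters' processing notes name Bowtie2 2.1.0, RSEM 1.2.15 and hg38, with no role stated, while no source used here names the annotation, the strand setting or a filter. Library preparation is given as oligo-dT purification in the methods but as removal of ribosomal RNA in the series' design text, and this was not resolved.

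Counts were rounded to whole numbers and tested with edgeR 4.0.16 (R 4.3.3) in 1 fit of all 3 groups, with TMM factors, filterByExpr at its defaults and the quasi-likelihood F test, adjusted by Benjamini-Hochberg over 16417 genes. A gene was called at an adjusted p under 0.05. The SE is the size of the log2 fold change over the square root of F. An exact permutation of 3 against 3 libraries cannot give a p under 0.1 for 1 gene, so these p-values borrow their spread from other genes. The scripts were tested on simulated data. Isozyme shares and levels between genes use the joined length of all exons of a gene in GENCODE release 29, and promoters are from RefSeq GRCh38.p14. Of the members, 12 had values that were not whole in at least 1 library. Alternatives used DESeq2 1.42.0, limma 3.58.1 (voom), other factors and filters, a replicate block, removal of a trend with length and with GC content, each a spline with 4 degrees of freedom, each library left out, and a fold change of at least 1.5.

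The members and all lists were chosen with earlier results of these data known. All 39 members could be named, with values in every library and tests for those called in at least 1 comparison and with levels and ranges for the rest. From the other lists (HIF control genes, further hypoxia targets, pyruvate oxidation, pentose phosphate, and modulators and tissue isoforms of glycolysis), the genes named were at most 6 per list, those with the smallest p among genes called at 10 µM that changed at least 1.5-fold. Genes of these lists named beyond this were chosen after their values were seen. Some genes of these lists are not reported here.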

Additional observations from a re-analysis of the deposited data

How the results depend on the processing

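Over the 3 comparisons, 60 calls of members were made, and between 50 and 60 of them stayed under each alternative at the same threshold, with 0 reversed. DESeq2, limma-voom, DESeq2-type factors, a filter at 1 CPM in 3 libraries and leaving out genes of ribosomal RNA kept all 60. Calls near the threshold were lost most often, namely SLC2A1, GPI, ENO1 and LDHA at 5 µM and BNIP3L, PDK1, ALDOC and ENO2 at 10 µM against 5 µM. Same-numbered libraries did not deviate together (correlations from -0.049 to 0.032), which does not show whether same-numbered cultures were set up together. A replicate block kept 59 of 60 calls, with 21, 27 and 11 members lower at 5 µM, at 10 µM and between the doses. Of all 16417 genes, 738, 2887 and 689 were lower with that block. Fitting only the groups compared gave 34 members lower at 5 µM, where 3280 of all 15849 genes tested were lower. It gave 4 lower at 10 µM against 5 µM, where 221 of all 16005 genes were. A fold change of at least 1.5 as well left 13, 16 and 3 of the calls. Leaving out single libraries gave 18 to 34 members lower at 5 µM, 0 to 1 higher at 10 µM, and 5 to 21 lower and 0 to 4 higher between the doses. In the same fits 410 to 2951 of all genes were lower at 5 µM and 1645 to 3854 were higher at 10 µM. Between the doses 388 to 2576 of all genes were lower and 146 to 1474 higher. Higher between the doses was 1 with DESeq2, with the length and GC trend removed, and with that trend and the block, where 1080, 740 and 605 of all 16417 genes were higher. With that trend removed and without 10 µM replicate 1, chosen after seeing the data, 22 members were lower and 5 higher between the doses. Of all 16745 genes in that fit, 2491 were lower and 1444 higher. The median of the hypoxia targets at 10 µM was -0.72 with limma-voom, -0.60 with the block and the trend, and -0.57 with the trend removed and without 10 µM replicate 1. The causes of these shifts were not tested. Without division by length, the change of a share from DMSO to 10 µM was, in percentage points, -6.56 for PFKL, 9.10 for PFKM, -3.49 for ALDOC, -0.96 for ENO2, -10.1 for LDHA and -2.25 for EPAS1, where the lengths enter by construction. The change of the HK2 share, -0.09 points, ranged from -2.36 to 1.61 when single libraries were left out and turned positive without DMSO replicate 1 (0.15), 10 µM replicate 1 (1.61) or 10 µM replicate 2 (0.48). Low counts limit EGLN3, CA12 and CXCR4.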

Other observations

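Genes at the branch points next to glycolysis are given here as values. Of 13 genes of pyruvate oxidation, 4 were lower and 1 higher at 10 µM in edgeR, against 18.0% and 16.4% of all genes. The 3 other pyruvate dehydrogenase kinase genes, which like PDK1 encode inhibitors of that complex, were among the 4. PDK2 had means of 37.5, 32.0 and 24.8 CPM under DMSO, 5 µM and 10 µM, with a log2 fold change at 10 µM of -0.60 ± 0.14 (SE, edgeR adjusted p = 0.00906). PDK3 had means of 35.8, 28.1 and 17.7 CPM, at -1.01 ± 0.19 (edgeR adjusted p = 0.00235), and PDK4 had 26.7, 23.6 and 14.0 CPM, at -0.93 ± 0.16 (edgeR adjusted p = 0.00161). Without 10 µM replicate 1 these were -0.79, -0.81 and -0.76, all still called. The remaining 2 genes called, PDP1, a phosphatase of the complex, and MPC1, a subunit of the mitochondrial pyruvate carrier, were at -0.46 and 0.54 and are named because so few were called. The subunit genes PDHA1, PDHB, DLAT, DLD and PDHX were not called.

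TKT, a transketolase of the pentose phosphate pathway, was lower at 10 µM, at -0.48 on the log2 scale. Among 12 tested modulators and tissue isoforms of glycolysis, 4 were higher and 1 lower at 10 µM, read against the same shares. TIGAR, a p53 target whose product lowers the fructose bisphosphate that PFKFB enzymes make, rose with dose, at means of 31.6, 81.3 and 104 CPM, with log2 fold changes of 1.36 ± 0.08 and 1.72 ± 0.09 (SE, edgeR adjusted p = 1.91e-05 and 7.41e-07). HKDC1, a hexokinase relative, fell from 4.82 CPM to 0.866 CPM at 10 µM, at -2.47 ± 0.60 (edgeR adjusted p = 0.0102), and LDHC, the testis form of lactate dehydrogenase, was at 1.78 CPM and 3.21 CPM, at 0.85 ± 0.25 (edgeR adjusted p = 0.0257).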
